A study of Saccharomyces cerevisiae with 12 samples.

Results

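Loss of *TUP1* was examined in yeast that had received only DMSO, the solvent of the drug used elsewhere in the study. Of the 12 NimbleGen expression arrays in the series, 6 were compared: 2 of *tup1Δ* in DMSO and 4 of WT in DMSO, chosen by the strain and treatment in their sample descriptions. The *tup1Δ* strain came from the yeast deletion collection and was a single strain, grown as 2 separate cultures. The WT was BY4741, the *MATa* laboratory strain behind that collection, which lacks *LEU2*, *MET17* and *URA3* and carries a partial deletion of *HIS3*, and it was grown as 4 separate cultures, each divided between DMSO and rapamycin. All cultures were grown in YPD at 30°C to mid-log phase and received 0.1% DMSO for 30 min. The values are log2 expression levels, 1 per gene and array, for 5769 genes.

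Tup1 does not bind DNA by itself. It forms a corepressor with Cyc8 that is brought to promoters by DNA-binding repressors such as Mig1 and Nrg1 at glucose-repressed genes, Rox1 and Mot3 at hypoxic genes, Rfx1 at genes of the DNA damage response, Sko1 at osmotic stress genes and the α2 protein at **a**-specific genes. At the promoter the complex works through histone deacetylases, positioned nucleosomes and the Mediator complex. Cells without Tup1 are known for flocculating and for failing to repress genes in glucose.

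*TUP1* (YCR084C, chromosome III) stood at 8.0 and 7.95 in *tup1Δ*, against 13.95, 14.04, 13.89 and 13.85 in WT. The *tup1Δ* values lay at the low end of the arrays, where *LEU2*, *URA3* and *MET17*, absent from both strains, read between 7.88 and 8.03 on all 6 arrays. *HIS3* read between 12.88 and 13.05 on these arrays, so the partial deletion did not lower its signal to that end. The α-specific genes *STE3*, the **a**-factor receptor, and *MF(ALPHA)1*, an α-factor gene, stayed between 7.98 and 8.21 in both strains, while *STE2*, the α-factor receptor of **a** cells, read between 13.91 and 14.27. By these genes the arrays of both strains had the *TUP1* status of their labels and the markers of BY4741. *CYC8* (YBR112C), the partner of *TUP1*, was at 14.01 and 13.89 in *tup1Δ* and between 13.84 and 13.89 in WT, with a log2 fold change of 0.08 and an adjusted p of 0.307 from limma. The *tup1Δ* arrays differed from each other by an SD of 0.0945 across genes. The WT arrays fell into pairs, with an SD of 0.110 between replicates 1 and 2, 0.0647 between replicates 3 and 4, and 0.258 to 0.287 between arrays of different pairs.

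Log2 fold changes are *tup1Δ* minus WT and come, with their adjusted p, from a limma fit of all genes. A gene was called at an adjusted p under 0.05 and a log2 fold change of at least 1 in size. By this rule 264 genes, or 4.58% of those tested, were called. Of all genes, 238, or 4.13%, were called higher in *tup1Δ*, and 26, or 0.451%, were called lower. Of the called genes that were higher, 67 reached a log2 fold change of 2. Near the threshold, 29 genes were called higher between 1 and 1.1, and 36 genes with an adjusted p under 0.05 lay between 0.9 and 1 and were not called. A comparison of 2 arrays with 4 cannot give an exact permutation p below 0.0667 one-sided or 0.133 two-sided for a single gene, and *TUP1* itself had 0.133, so the calls rest on the fit across genes. That fit takes the arrays as independent, so its adjusted p does not account for the WT pairs. With the WT replicates averaged in pairs 262 genes were called, and 262 were shared with the 264.

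**Figure D1:**
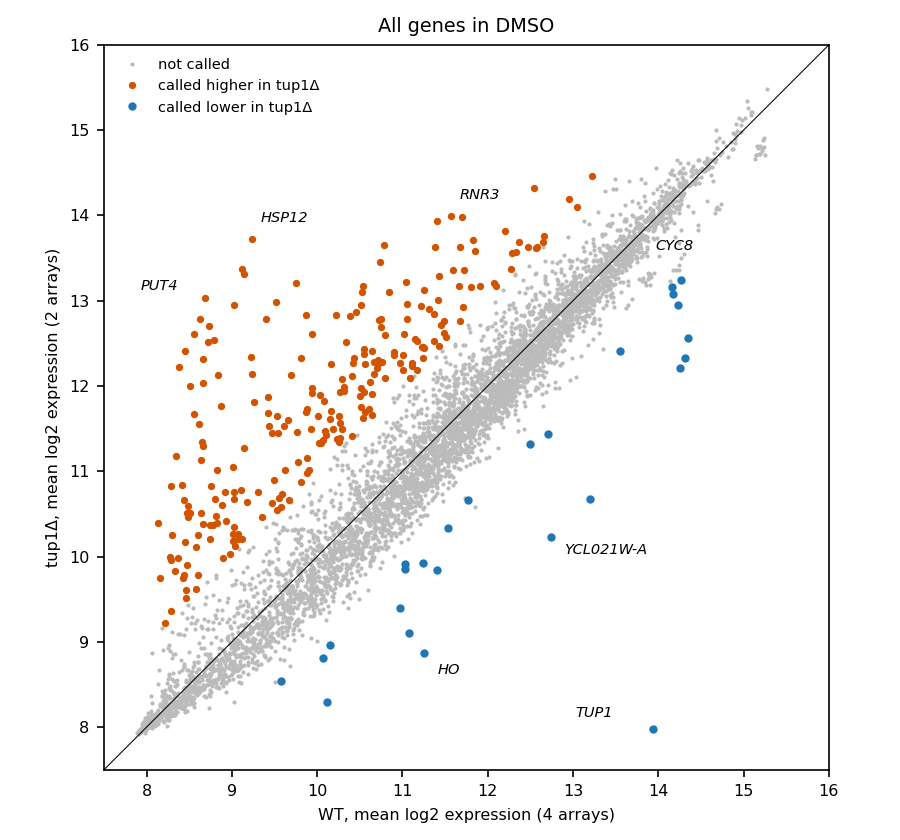
Mean log2 expression of each gene in *tup1Δ* (vertical axis, 2 arrays) against WT (horizontal axis, 4 arrays) in DMSO, with the line of equal values. The 238 genes called higher (orange) spread far above the line, many of them from WT means near the low end of the arrays, while the 26 called lower (blue) are few and include *TUP1*.

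The 264 called genes were set against 48 lists of yeast gene groups that together held 1058 of the genes tested. The lists held 116 of the genes called higher and 5 of those called lower. In all, 28 lists had at least 1 member called higher, 4 had at least 1 called lower and 17 had none called. The shares of members called higher were largest in the DAN/TIR and flocculin lists, at 83.3% each, and in the maltose and seripauperin lists, at 81.8% and 66.7%. Of all genes 4.13% were called higher. For comparison, the median log2 fold change over all genes was -0.08.

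**Figure D2:**
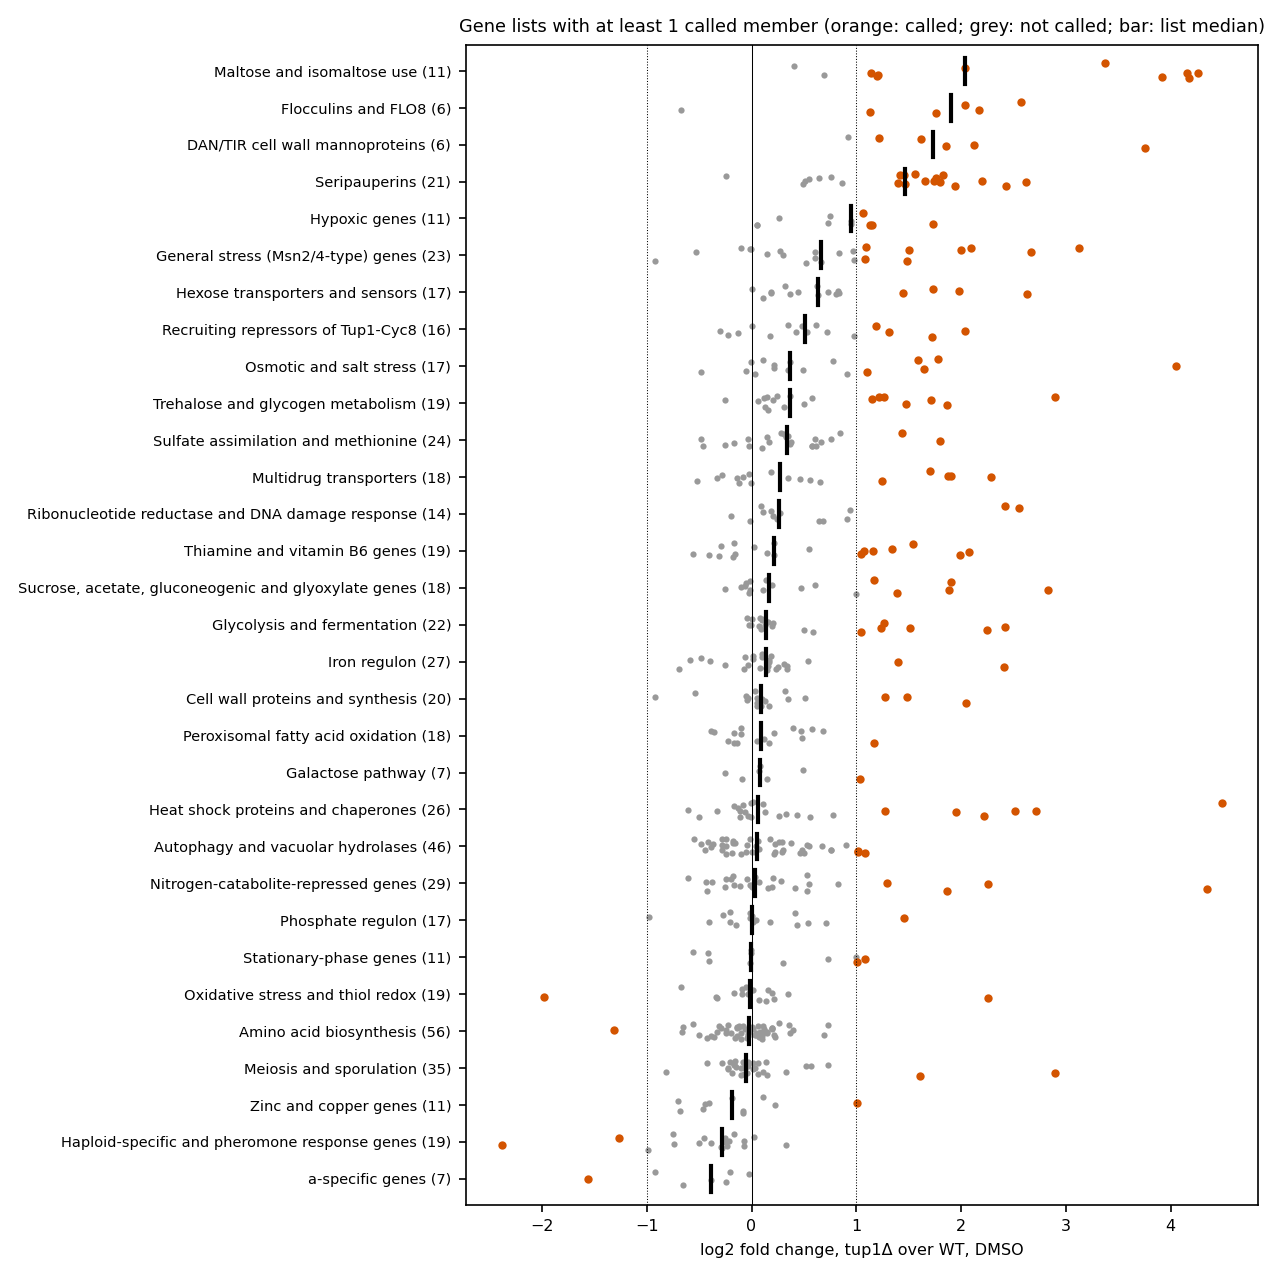
Log2 fold change of every member of each gene list with at least 1 called member (1 row per list, number of members in parentheses), for *tup1Δ* over WT in DMSO. Orange points were called, grey points were not, black bars are list medians and dotted lines mark 1 and -1. The maltose, flocculin, DAN/TIR and seripauperin lists have medians of 1.47 to 2.04, while most other lists have medians near 0 and a few members far to the right.

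Genes for maltose and isomaltose use rose most as a group. Of 11 measured members 9 were called higher, or 81.8% against 4.13% of all genes, with a list median of 2.04. The other 2, the regulator *MAL13* at 0.69 and the transporter *MPH2* at 0.40, were not called. *MAL12* (YGR292W), a maltase, was at 13.34 and 13.42 in *tup1Δ*, against 9.19, 9.09, 9.11 and 9.08 in WT. *IMA2* (YOL157C), an isomaltase, was at 12.73 and 12.83 in *tup1Δ*, against 8.60, 8.67, 8.59 and 8.64 in WT. The strains were thus far apart for both enzymes, 19.2-fold for *MAL12* and 17.8-fold for *IMA2*, with hardly any spread within a strain. The isomaltases *IMA3*, *IMA1* and *IMA5* had log2 fold changes of 3.92, 3.38 and 2.04. The transporters *MAL31* and *MAL11* and the activator *MAL33* rose less, by 1.21, 1.20 and 1.14 on the log2 scale, and *MAL11* was at 0.95 and not called when only WT replicates 3 and 4 were used. *MAL12* and *MAL32*, and likewise the *IMA* genes, are close paralogs whose probes may not separate them.

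Of 17 hexose transporters and sensors 4 were called higher, or 23.5% against 4.13% of all genes. The log2 fold change was above 0 in all 17, and in 2211 of the 5769 genes tested. *HXT4* (YHR092C), a transporter repressed at high glucose, was at 13.20 and 13.16 in *tup1Δ*, against 10.59, 10.74, 10.41 and 10.44 in WT, and its log2 fold change of 2.63 carried a standard error of 0.15 and, by limma, an adjusted p of 1.04e-07. The other called members were *HXT8*, with a log2 fold change of 1.98, *HXT15*, with 1.73, and *HXT5*, a transporter of slow-growing cells, with 1.45. The low-affinity transporter *HXT1*, which is used at high glucose, had a log2 fold change of 0.19 and was not called. In the galactose pathway, the signal transducer *GAL3*, with a log2 fold change of 1.04, was the called member among 7, so its share of 14.3% rests on 1 gene. The galactokinase *GAL1* read 9.39 and 9.30 in *tup1Δ* and between 9.39 and 9.48 in WT, and was not called.

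Genes for growth without glucose were split. Of 18 genes for sucrose, acetate, gluconeogenesis and the glyoxylate cycle, 5 were called higher, or 27.8% against 4.13% of all genes. None was called lower, and the list median was 0.17. *PCK1* (YKR097W), the gluconeogenic phosphoenolpyruvate carboxykinase, was at 11.09 and 11.26 in *tup1Δ*, against 8.30, 8.32, 8.39 and 8.37 in WT. *JEN1* (YKL217W), the lactate transporter, was at 12.34 and 12.32 in *tup1Δ*, against 10.27, 10.35, 10.57 and 10.53 in WT. The activators of this programme, *ADR1* with a log2 fold change of 1.89 and *CAT8* with 1.39, were called too, as was the carnitine acetyltransferase gene *CAT2* with 1.17. Other textbook members did not follow them. The gluconeogenic *FBP1* read 8.53 and 8.57 in *tup1Δ* and between 8.52 and 8.67 in WT, and *ICL1* of the glyoxylate cycle had a log2 fold change of -0.25. *SUC2*, invertase, was just short of a call at 0.99 and reached 1.08 without *tup1Δ* replicate 1 and 1.01 without WT replicate 4, both called.

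Among 22 glycolytic and fermentation genes 6 were called higher, or 27.3% against 4.13% of all genes. These 6 were mainly the minor forms of their enzymes. *HXK1* (YFR053C), the hexokinase expressed away from glucose, was at 13.64 and 13.61 in *tup1Δ*, against 11.51, 11.67, 11.14 and 11.19 in WT. *HXK2*, the hexokinase of glucose-grown cells, had a log2 fold change of 0.00 and an adjusted p of 0.978 from limma. The pyruvate decarboxylase isozyme *PDC6* rose by 2.42 on the log2 scale, the kinase-like *EMI2* by 1.51, the pyruvate kinase isozyme *PYK2* by 1.27, the glucokinase *GLK1* by 1.24 and the dehydrogenase *TDH1* by 1.05. *TDH1* was no longer called without *tup1Δ* replicate 1, at 0.995, or with only WT replicates 1 and 2, at 0.97. Of 19 genes for the storage sugars trehalose and glycogen 7 were called higher, or 36.8%. *GPH1* (YPR160W), glycogen phosphorylase, was at 11.81 and 11.73 in *tup1Δ*, against 8.82, 8.80, 8.95 and 8.91 in WT. Its log2 fold change of 2.90 was followed by 1.87 for the phosphatase subunit *GAC1*, 1.71 for the glycogen synthase *GSY1*, 1.47 for the debranching enzyme *GDB1* and 1.26 for the trehalose synthase subunit *TSL1*. The catalytic trehalose synthase *TPS1* had 0.13 and was not called.

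**Figure D3:**
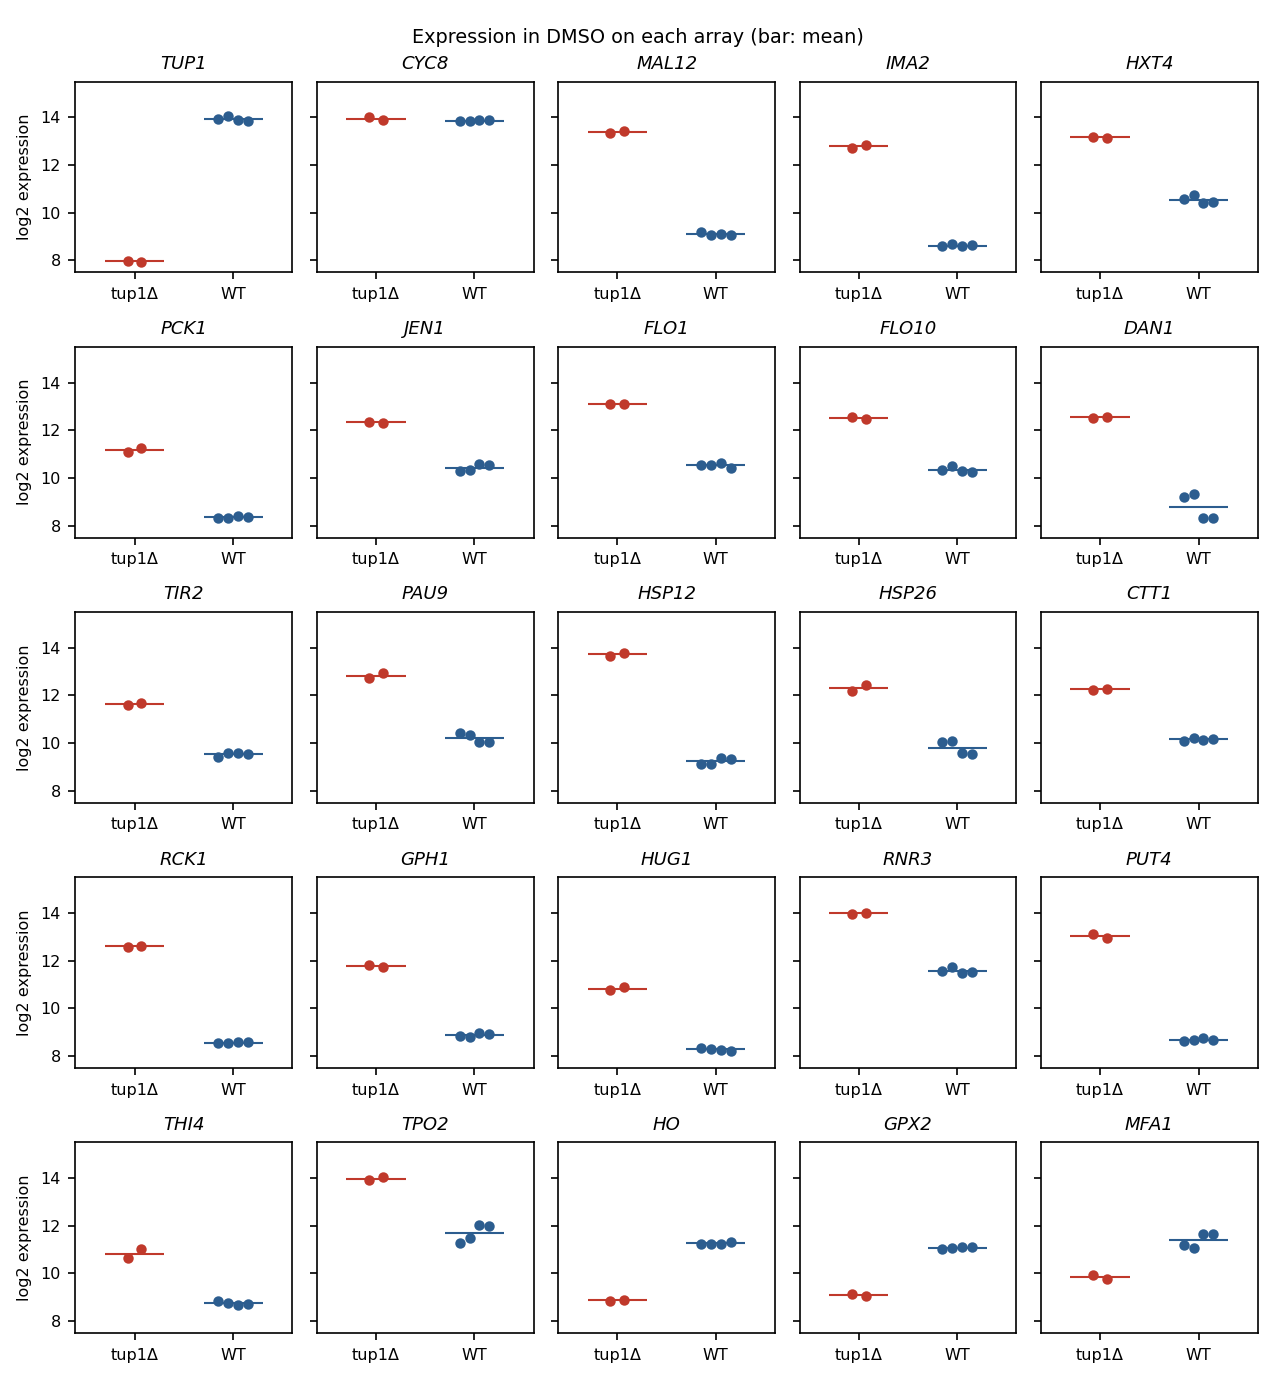
Log2 expression (vertical axis) of 25 named genes on each array in DMSO, with *tup1Δ* (red, 2 arrays) left of WT (blue, 4 arrays) and bars at the means. Beside the near-equal *CYC8*, the strains are apart in every panel, and in *DAN1*, *HSP26*, *TPO2* and *MFA1* the WT arrays sit in 2 pairs.

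Cell-surface proteins formed the next block. Of 6 members of the flocculin list, 5 were called higher, or 83.3% against 4.13% of all genes. These 5 are the flocculins themselves, adhesins that make cells clump or invade. *FLO1* (YAR050W) was at 13.09 and 13.11 in *tup1Δ*, against 10.55, 10.54, 10.61 and 10.42 in WT. *FLO10* (YKR102W) was at 12.57 and 12.47 in *tup1Δ*, against 10.33, 10.51, 10.28 and 10.25 in WT. *FLO5*, *FLO9* and *FLO11* had log2 fold changes of 2.04, 1.76 and 1.13, while the activator gene *FLO8* was at 10.55 and 10.58 in *tup1Δ* and between 11.06 and 11.37 in WT, a log2 fold change of -0.68 that was not called. *FLO1*, *FLO5* and *FLO9* share much of their sequence, so their separate values are uncertain.

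The DAN/TIR mannoproteins, which replace other wall proteins when oxygen is short, had 5 of 6 members called higher and a median of 1.74. That share was 83.3%, against 4.13% of all genes. *DAN1* (YJR150C) was at 12.51 and 12.58 in *tup1Δ*, against 9.18 and 9.31 in WT replicates 1 and 2 and 8.33 in both WT replicates 3 and 4. Its log2 fold change of 3.76 had a standard error of 0.28. That error comes from a spread pooled over the 4 groups of the fit and takes the WT arrays as independent, so it does not account for the WT pairs. *TIR2*, *TIR4*, *TIR1* and *TIR3* had log2 fold changes of 2.13, 1.86, 1.62 and 1.22. *DAN4* was at 0.92 and not called, but was called without WT replicate 1 at 1.1 and without WT replicate 2 at 1.01. The related seripauperins (*PAU* genes), a family of near-identical small wall proteins at chromosome ends, had 14 of 21 members called higher, or 66.7%, and a median of 1.47. *PAU9* was highest with a log2 fold change of 2.62, followed by *PAU24* with 2.43 and *PAU5* with 2.20, and their probes may read each other's transcripts.

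Of 11 other hypoxic genes 4 were called higher, or 36.4% against 4.13% of all genes, with a list median of 0.95. *CYC7* (YEL039C), the hypoxic form of cytochrome c, was at 10.11 and 9.89 in *tup1Δ*, against 8.28, 8.27, 8.26 and 8.28 in WT. *PDR11*, a sterol importer, had a log2 fold change of 1.15, *FRD1*, a fumarate reductase, 1.13, and *ANB1*, the hypoxic form of a translation factor, 1.06. *ANB1* was at 0.93 and not called without WT replicate 1 and at 0.83 and not called with only WT replicates 3 and 4, and *FRD1* at 0.96 and not called with only WT replicates 1 and 2. *HYP2*, the aerobic counterpart of *ANB1*, had a log2 fold change of 0.19, and none of the 5 aerobic counterparts was called, although 1 of them was higher at an adjusted p under 0.05, which it did not keep without *tup1Δ* replicate 1 or 2 or WT replicate 3 or 4. Among 20 further cell wall genes 3 were called higher, or 15%, *PIR3* with a log2 fold change of 2.05, *SPI1* with 1.49 and *CWP1* with 1.27. At an adjusted p under 0.05 alone 6 of the 20 were higher and 2 lower, the lowest being *YGP1* at -0.925, which was not called.

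Stress genes rose in part of each list. Of 26 heat shock proteins and chaperones 6 were called higher, or 23.1% against 4.13% of all genes, with a list median of 0.06. *HSP12* (YFL014W), a small membrane-stabilizing protein, was at 13.66 and 13.77 in *tup1Δ*, against 9.11, 9.11, 9.36 and 9.34 in WT. *HSP26* (YBR072W), a small chaperone, was at 12.20 and 12.45 in *tup1Δ*, against 10.06, 10.08, 9.59 and 9.53 in WT. The other called members were *HSP31*, *HSP32* and *HSP33*, related DJ-1-like proteins with log2 fold changes of 2.72, 2.22 and 1.95, and the membrane protein *HSP30* with 1.28. The disaggregase *HSP104* had 0.11 and was not called, and *SSA4*, an Hsp70 induced by heat, had -0.61 and was not called either.

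For 23 general stress genes, those with promoters of the kind read by Msn2 and Msn4, the list median was 0.66. At an adjusted p under 0.05 alone 15 were higher and 2 lower. By the full rule 8 were called higher, or 34.8% against 4.13% of all genes. They included *MSN4* itself (YKL062W), at 12.54 and 12.69 in *tup1Δ*, against 9.88, 9.90, 10.00 and 10.00 in WT. *SOL4*, a pentose phosphate enzyme, had a log2 fold change of 3.12, *CTT1*, the cytosolic catalase, 2.10, *DDR2* 2.00 and the repressor *XBP1* 1.5. The lowest value of the list was that of *YGP1*, -0.925, which was not called. *YGP1* stood at -1.02 without *tup1Δ* replicate 2, and was called lower at -1.01 with only WT replicates 3 and 4. Of 17 osmotic and salt stress genes 5 were called higher, or 29.4%. The kinase gene *RCK1* (YGL158W) was at 12.59 and 12.62 in *tup1Δ*, against 8.55, 8.53, 8.57 and 8.57 in WT. *HOR7*, the dihydroxyacetone kinase *DAK2*, the reductase *GRE2* and the glycerol phosphatase *GPP2* had log2 fold changes of 1.78, 1.65, 1.59 and 1.1, and the glycerol-forming *GPD1* had 0.50 and was not called. In the oxidative stress list of 19, 1 member was called higher, or 5.26%, near the 4.13% of all genes, and 1 was called lower. The NADPH dehydrogenase *OYE3* (YPL171C) was at 10.37 and 10.41 in *tup1Δ*, against 8.11, 8.13, 8.14 and 8.14 in WT, and the glutathione peroxidase *GPX2* (YBR244W) was at 9.15 and 9.06 in *tup1Δ*, against 11.01, 11.09, 11.11 and 11.13 in WT.

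Ribonucleotide reductase makes the precursors of DNA, and its genes are induced by DNA damage. *RNR3* (YIL066C), the damage-induced large subunit, was at 13.96 and 14.02 in *tup1Δ*, against 11.57, 11.73, 11.48 and 11.51 in WT. *HUG1* (YML058W-A), an inhibitor of the enzyme, was at 10.77 and 10.89 in *tup1Δ*, against 8.34, 8.31, 8.26 and 8.23 in WT. These 2 were the called members among 14, or 14.3% against 4.13% of all genes called higher. The small subunits *RNR2* and *RNR4*, with log2 fold changes of 0.94 and 0.92, stood just below the threshold, and *RNR2* was called at 1.02 when the *tup1Δ* arrays were shifted to the median gene. The constitutive large subunit *RNR1* had 0.09. *RFX1*, the repressor of these genes, had 0.72 and was not called.

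Several repressors that recruit Tup1 were themselves higher. Of 16 measured, 4 were called higher, or 25% against 4.13% of all genes, and 0 lower, with a median of 0.51. *NRG1* (YDR043C), a repressor of glucose-repressed genes, was at 11.05 on both *tup1Δ* arrays, against 9.05, 8.99, 9.02 and 9.0 in WT. The bZIP genes *YAP6* and *CIN5* had log2 fold changes of 1.72 and 1.31, and *NRG2* had 1.19. *SUT1* was just short of a call at 0.98, and was called at 1.03 without *tup1Δ* replicate 1. *ROX1* with 0.48, *MIG1* with 0.35 and *SKO1* with -0.30 passed an adjusted p under 0.05 but not the fold threshold, so they were not called. *RFX1* was described above. At the adjusted p alone 11 of the 16 were higher, or 68.8% against 15.3% of all genes, and 1 was lower. The list of Cyc8 and 5 histone deacetylase genes had none called, and 1 of its 6 members was lower at an adjusted p under 0.05.

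Nutrient genes are held in several lists, by the nutrient they serve. Of 29 nitrogen-catabolite-repressed genes, which are held down while good nitrogen sources last, 4 were called higher, or 13.8% against 4.13% of all genes. The list median was 0.03, and at an adjusted p under 0.05 alone 9 were higher, 5 lower and 15 neither. *PUT4* (YOR348C), the proline permease, was at 13.11 and 12.95 in *tup1Δ*, against 8.65, 8.66, 8.74 and 8.68 in WT. *GAP1* (YKR039W), the general amino acid permease, was at 13.26 and 13.33 in *tup1Δ*, against 11.47, 11.52, 11.32 and 11.41 in WT. *PUT1*, proline oxidase, and *UGA2*, of the 4-aminobutyrate pathway, had log2 fold changes of 2.26 and 1.29, so 2 of the 4 called members act in proline uptake and use.

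Thiamine and vitamin B6 genes had 7 of 19 members called higher, or 36.8% against 4.13% of all genes. Without the fold threshold 10 were higher and 5 lower, with 1 and 3 lower without *tup1Δ* replicate 1 and 2. *THI4* (YGR144W), of thiazole synthesis, was at 10.64 and 11.02 in *tup1Δ*, against 8.87, 8.75, 8.67 and 8.74 in WT. *THI2*, an activator of the pathway, had a log2 fold change of 1.99 and *THI7*, the thiamine transporter, 1.16. The other called members were *THI12*, *THI5*, *THI13* and *THI11*, near-identical copies of the same gene. Of 18 multidrug transporters 5 were called higher, or 27.8%, and 3 of these export polyamines. *TPO2* (YGR138C) was at 13.93 and 14.04 in *tup1Δ*, against 11.27, 11.50, 12.02 and 12.00 in WT, while *TPO4* had a log2 fold change of 1.91 and *TPO1* 1.24. *QDR1* with 1.88 and *PDR10* with 1.70 completed the called members.

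Of all genes 4.13% were called higher, and the shares in the iron, sulfur, phosphate and meiosis lists were 7.41%, 8.33%, 5.88% and 5.71%, so the counts in these lists are near the background. The iron regulon had 2 of 27 called higher, the ferric reductase *FRE4* with a log2 fold change of 2.41 and the mannoprotein *FIT2* with 1.40. *FIT2* was at 10.71 and 11.08 in *tup1Δ*, against 10.14, 9.88, 8.93 and 9.02 in WT, and was not called at 1.22 without *tup1Δ* replicate 2. Of 24 sulfur and methionine genes 2 were called higher, *MET13* of folate metabolism with 1.80 and the cystathionine lyase *STR3* with 1.43. At an adjusted p under 0.05 alone, 14 of the 24 were higher, or 58.3% against 15.3% of all genes, and 2 were lower, with a list median of 0.34. Without *tup1Δ* replicate 1 the higher count was 10, and without replicate 2 it was 12. The phosphate regulon of 17 had *GIT1*, a glycerophosphoinositol permease, with 1.46. Meiosis and sporulation genes had 2 of 35 called higher, the glucoamylase *SGA1* with 2.90 and the membrane fusion protein *SPO20* with 1.61.

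Other large rises belonged to no list. Of the genes called higher 122 were in none, and 29 of all 238, or 12.2%, had only an ORF name, against 9.78% of the genes tested. *MPC3* (YGR243W), a subunit of the mitochondrial pyruvate carrier, was at 12.30 and 12.14 in *tup1Δ*, against 8.42, 8.36, 8.42 and 8.34 in WT. *DSF1* (YEL070W), a mannitol dehydrogenase, was at 12.99 on both *tup1Δ* arrays, against 9.66, 9.62, 9.43 and 9.36 in WT. A second mannitol dehydrogenase, *MAN2* (YNR073C), was at 13.22 and 13.21 in *tup1Δ*, against 9.79, 9.72, 9.77 and 9.72 in WT. *DSF1* and *MAN2* are near-identical copies and may not be told apart by the array. *TMA10* rose by 3.98 on the log2 scale, *FMP48* by 3.96, *PHM7* by 3.80, the chitin synthase activator *SHC1* by 3.66, YMR206W by 3.49, *HBN1* by 3.39 and *ECM13* by 3.29.

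Genes that fell were few and mostly outside the lists. Of the 26 called lower, 14, or 53.8%, had only an ORF name. *HO* (YDL227C), the mating-type switching endonuclease, was at 8.85 and 8.89 in *tup1Δ*, against 11.25, 11.22, 11.26 and 11.31 in WT. *MFA1* (YDR461W), an **a**-factor gene, was at 9.93 and 9.75 in *tup1Δ*, against 11.20, 11.09, 11.67 and 11.65 in WT. *SST2* (YLR452C), which turns the pheromone signal off, was at 11.48 and 11.39 in *tup1Δ*, against 12.78, 12.78, 12.57 and 12.68 in WT. All 3 are classed with mating or mating-type switching, and whether *HO* is active in this strain was not examined. In each the strains did not overlap, but both *tup1Δ* values lay below all WT values in 40.4% of the genes tested.

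Further members of the mating lists were lower by less. Of 19 haploid-specific and pheromone response genes 2 were called lower, a rule met by 0.451% of all genes. At an adjusted p under 0.05 alone 13 were lower, or 68.4% against 27.3% of all genes, and 1 was higher. Leaving out either *tup1Δ* array reduced the 13 to 8, and the count of lower genes among all tested, 1577 with all arrays, to 905 without replicate 1 and 938 without replicate 2. *FUS1*, a fusion protein of mating cells, had a log2 fold change of -0.99, the agglutinin anchor *AGA1* -0.75 and the arrest factor *FAR1* -0.74. *FUS1* was not called, but was at -1.04 and called without *tup1Δ* replicate 2 or without WT replicate 1. Of 7 **a**-specific genes 1 was called lower, against 0.451% of all genes. By the adjusted p alone 3 were lower, among them *BAR1*, the α-factor protease, with -0.92. The other **a**-factor gene, *MFA2*, had -0.02.

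Among the other genes called lower were *NDJ1*, a meiotic telomere protein, with a log2 fold change of -1.82, *ARO10*, a decarboxylase of aromatic amino acid breakdown, with -1.58, *ARG1*, of arginine synthesis, with -1.31, and *PRP11*, a splicing factor, with -1.26. The mannosyltransferase *KTR2* had -1.19. ORFs without a gene name took most of the other large falls. YCL021W-A was at 10.18 and 10.28 in *tup1Δ*, against 12.77, 12.64, 12.79 and 12.77 in WT, and YDR170W-A was at 10.72 and 10.62 in *tup1Δ*, against 12.56, 13.05, 13.57 and 13.63 in WT. YMR046C, YBL005W-A, YNL284C-A and YDR034C-A had log2 fold changes between -2.04 and -1.27. YMR046C, YBL005W-A and YNL284C-A read close to each other, from 13.98 to 14.51 in WT and from 12.11 to 12.63 in *tup1Δ*. Whether their probes read the same transcripts was not tested, so they may not be separate falls.

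Growth and respiration lists had no called member in the fit of all arrays, and some had many members past the adjusted p alone. Of 82 ribosome biogenesis genes 33 were lower and 0 higher at an adjusted p under 0.05, or 40.2% lower against 27.3% of all genes, and the median was -0.27. The mean of this list lay 0.24 below its WT mean on both *tup1Δ* arrays, but the WT arrays themselves ran from 0.16 below to 0.16 above it, by pair. With only WT replicates 1 and 2 the list median was -0.15, with 7 members higher and 24 lower, and with only WT replicates 3 and 4 it was -0.41. The 33 lower members became 16 without *tup1Δ* replicate 1 and 21 without replicate 2. Of 66 mitochondrial ribosomal proteins 32 were lower and 2 higher, with a median of -0.25, and here the WT arrays spread over only 0.02 below to 0.04 above their mean. Without *tup1Δ* replicate 1 there were 15 lower, without replicate 2 there were 18, and 0 were higher in either case. When the *tup1Δ* arrays were shifted so that the median gene did not change, 21 of these 66 were lower and 2 higher, against 1051 lower and 1180 higher of all genes. Of 16 cyclins and CDK inhibitors 12 were lower and 1 higher, with a median of -0.39. The G1 cyclin *CLN1* had a log2 fold change of -0.62, and the S-phase cyclin *CLB6* was just short of a call at -0.98 and was called at -1.03 without *tup1Δ* replicate 1, at -1.1 without WT replicate 1 and at -1.07 without WT replicate 2.

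The respiratory chain and ATP synthase went the other way, with 20 of 35 members higher and 0 lower at an adjusted p under 0.05, or 57.1% against 15.3% of all genes, and a median of 0.32. Without *tup1Δ* replicate 1 the count was 12 of 35, with 606 of all genes higher, and without replicate 2 it was 14 of 35, with 627. The subunits *ATP17* and *QCR9* had log2 fold changes of 0.92 and 0.76, and neither was called, but *ATP17* was called at 1.05 with only WT replicates 1 and 2 and with the replicate number as a block. The TCA cycle had 9 of 17 members higher and 0 lower, with *SDH1*, a succinate dehydrogenase subunit, at 0.90, and 14 were higher when the arrays were shifted in that way. The count was 5 without *tup1Δ* replicate 1 and 6 without replicate 2. Cytosolic ribosomal proteins had a median of 0.00 over 131 genes, of which 6 were lower and 0 higher, with 1 and 3 lower without *tup1Δ* replicate 1 and 2. Proteasome genes had a median of -0.10, close to that of all genes.

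**Figure D4:**
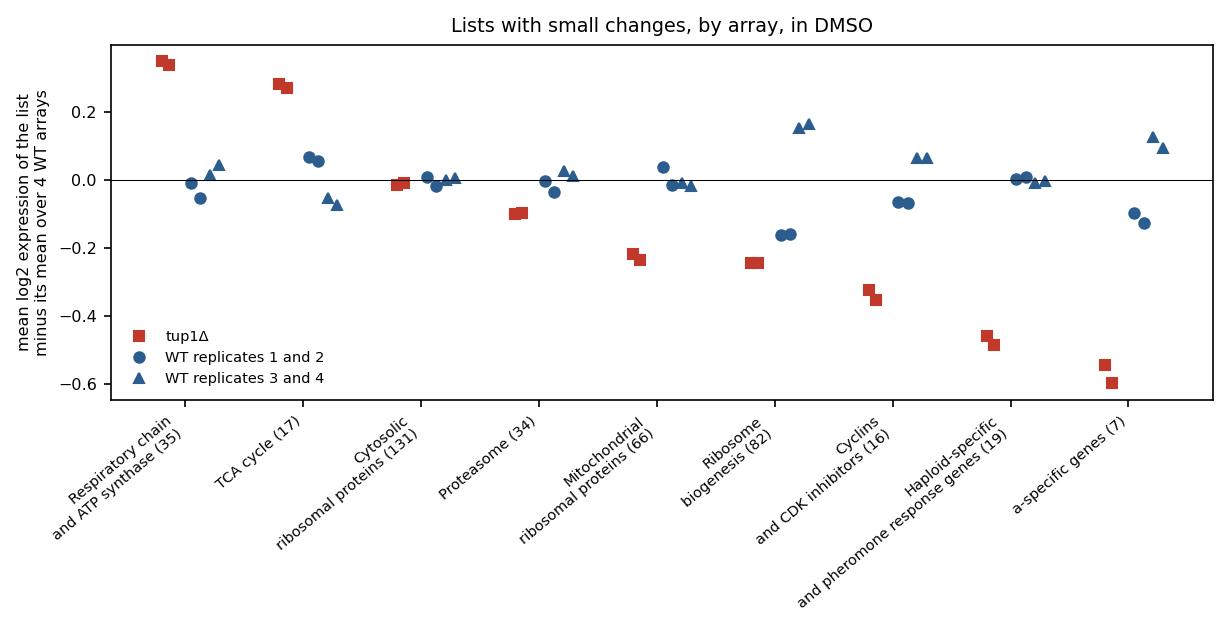
Mean log2 expression of 9 gene lists on each array, minus the mean of the list over the 4 WT arrays in DMSO (vertical axis), with *tup1Δ* (red squares) left of WT (blue circles for replicates 1 and 2, triangles for 3 and 4). Ribosome biogenesis differs more between the WT pairs than between *tup1Δ* and the WT mean, whereas the respiratory, mitochondrial ribosomal and haploid-specific lists separate the strains by more than the WT spread.

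Called genes were frequent near chromosome ends. Of 237 called-higher genes that could be placed in gene order, 63, or 26.6%, were among the outermost 10 genes of a chromosome end, a zone that held 5.57% of all placed genes. Within that zone 19.7% of the genes were called higher, against 3.21% beyond it. The share was 23.8% for the outermost 5 genes, 15.6% for the sixth to the tenth, 4.06% for places 11 to 20 and 3.08% past place 50. Of the 63 genes, 26 belonged to the seripauperin, DAN/TIR, flocculin, maltose and hexose transporter lists, which have many members near chromosome ends. Outside these 5 families, 13.1% of the genes in the zone were called higher, against 3.02% of the genes beyond it. The genes behind that 13.1% still included related copies, such as *THI5*, *THI11*, *THI12* and *THI13*, *HSP32* and *HSP33*, and *DSF1* and *MAN2*. Their probes may not separate them, so the share is not free of duplicated genes. Of the genes called lower, 3 of 26 lay in the zone.

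**Figure D5:**
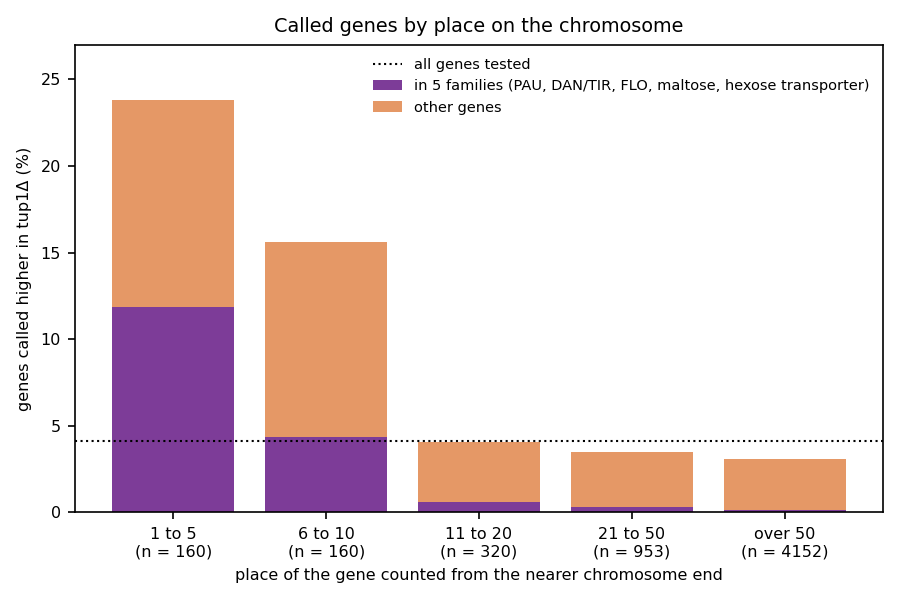
Percentage of genes called higher in *tup1Δ* (vertical axis) by place counted in genes from the nearer chromosome end (horizontal axis, number of genes in parentheses), split into 5 surface and sugar families (purple) and other genes (orange). The dotted line marks the 4.13% of all genes tested, which the 2 outermost bins exceed with 23.8% and 15.6%.

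Some called genes were neighbors. Of the genes called higher, 63 had an adjacent gene called higher, in 28 runs of at least 2 genes. Of these runs 13 had a gene among the outermost 10. Some joined members of the same list, such as *MAL33* with *MAL31* and *TIR4* with *TIR2*. With 4.13% of all genes called higher some neighbors arise by chance, and their number was not worked out, so these counts are only a description. The runs of 3 or more were *SOR2*, *HXT15* and *THI13* on chromosome IV, *AQY3*, *DAK2*, *ZNF1* and YFL051C on chromosome VI, *CPD1*, *SOL4*, *MGA1* and *RIE1* and also *MAL11*, *MAL12* and *PAU12* on chromosome VII, and *IMA5*, *HXT8* and YJL213W on chromosome X. The run with *SOL4* lay away from the chromosome ends, and its member *CPD1* was at the threshold with a log2 fold change of 1.00 and was not called without *tup1Δ* replicate 1, WT replicate 1 or WT replicate 2, at 0.91, 0.92 and 0.89.

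The same strains were compared after treatment with rapamycin (100 nM), which blocks TOR kinase signaling, on other arrays of the series, which for WT came from the same cultures. There 261 genes, or 4.52%, were called higher and 50, or 0.867%, lower. Both treatments shared 179 genes called higher, which is 75.2% of those in DMSO and 68.6% of those in rapamycin, and 21 called lower, 80.8% and 42.0%, and 0 genes were called in opposite directions. *MAL12* had a log2 fold change of 4.26 in DMSO and 4.15 in rapamycin, *FLO1* 2.57 in DMSO and 2.50 in rapamycin, and *HXT4* 2.63 in DMSO and 2.91 in rapamycin. Among nitrogen genes, *PUT4* had 4.35 in DMSO and 1.15 in rapamycin, *PUT1* 2.26 in DMSO and 0.67 in rapamycin, and *GAP1* 1.86 in DMSO and -0.01 in rapamycin, and the last 2 were not called in rapamycin. *HSP12* had 4.49 in DMSO and 2.69 in rapamycin. The difference between the treatments was not tested for these genes.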

How the data were processed

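NimbleGen *S. cerevisiae* arrays in 1 color were scanned by the authors, read with NimbleScan and put through Robust Multi-array Average (RMA) along with a larger set of their own arrays, and the deposited values are log2 expression levels. RMA equalizes the distributions of the arrays, so a shift of all genes together would not be seen. The number of arrays limits the precision, and no detection flag was used. Array medians ran from 11.48 to 11.52 and values from 7.85 to 15.52. Of 5872 entries, 103 were empty on every array.

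The deposited values entered limma 3.58.1 under R 4.3.3 as they were, with lmFit and eBayes over 12 arrays in 4 groups, with Benjamini-Hochberg adjustment over 5769 genes. The fit was tested on simulated data in which the noise of each array was independent, so that test does not cover the WT pairs. Names and gene order came from an R64 table, which matched 5763 genes. The members and lists were chosen with earlier results of these data known. The 48 lists were drawn up by hand from general knowledge, 20 members had no value or no matched name, and 3 naming errors (*COS111*, *RPP1*, *CPR1*) were removed after values were seen.

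Genes named are *TUP1*, *CYC8*, up to 5 called members per list with the largest changes, every called recruiting repressor, up to 3 members with the largest changes where few or none were called, the 25 largest rises and 15 largest falls, the 10 largest rises and falls outside the lists, runs of 3 or more adjacent called genes, and the marker genes. Uncalled members named beside called ones, and *KTR2*, were chosen after their values were seen.

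Same-numbered *tup1Δ* and WT arrays share only a number. Alternatives were another normalization, centring, filter, threshold, prior or choice of arrays, replicate blocks, and each array left out in turn. A planned search for promoter motifs was not run, since promoter sequences were not used here.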

Additional observations from a re-analysis of the deposited data

Results flagged for a closer look

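In 12 of the 192 genes checked, 1 WT array in DMSO stood apart from the other 3, with a gap to the nearest array that took up more of the range than Dixon's 95% critical value for 4 arrays allows. For 4 independent arrays chance would give about 1 in 20, or 9.6 genes. The WT arrays fell into pairs and the genes share arrays, so 9.6 may not be the chance number here. The gap was 0.933 of the range for *KTR2* and 0.933 for YFL051C, where WT replicate 1 was low at 9.95 and 8.98. It was 0.854 for *HXT8*, where WT replicate 1 was low at 9.69 against 9.99 to 10.04. WT replicate 1 was high for *SPI1*, with 0.868, and for *HSP32*, with 0.832. WT replicate 2 was high for *HXT1*, with 0.887, *ICL1*, with 0.876, and *FLO5*, with 0.896, and low for YCL021W-A, with 0.852. WT replicate 4 was high for *HSP33*, with 0.865, and *GRE1*, with 0.848, and low for *MF(ALPHA)1*, with 0.835, which reads at the low end of the arrays. The log2 fold changes of the called genes among them are larger than the distance of the outlying array from the others: *SPI1* read 10.34 and 10.49 in *tup1Δ*, against 9.08 on that array and 8.87 to 8.89 on the other WT arrays.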

How the results depend on the processing

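The fold threshold had the largest effect. With no fold threshold 2457 genes passed, 880 higher and 1577 lower, so the share of higher genes turned to 35.8%, and 15% of the higher genes were among the outermost 10 of a chromosome end. With the *tup1Δ* arrays also shifted to the median gene, 1180 were higher and 1051 lower. At a log2 threshold of 1.5 the counts were 148 genes, 137 higher and 11 lower. Against WT replicates 3 and 4 alone, 45 genes were lower and the share of higher genes was 84.3%. Without the dimmest 25% of genes 182 were called in DMSO, 159 higher and 23 lower, and 83 of the 264 were not among them. In rapamycin 199 were called without these genes, against 2519 with no fold threshold and 168 at 1.5. Leaving out each array gave 262 to 270 genes, 236 to 241 higher and 24 to 30 lower, a higher share of 88.7% to 90.8%, an outermost share of 26.2% to 27.1%, and 301 to 324 genes in rapamycin. A replicate block by number called 272 genes, 242 of them shared with the 264 reported, and a replicate block by culture called 266, including all 264. These numbers do not pair the strains: the deviations of same-numbered arrays correlated at -0.163 for replicate 1 and 0.214 for replicate 2. No called gene that the text names changed sign under any setting run. List medians near 0 turned sign under some setting, as for thiamine (-0.18 to 0.29), iron (-0.02 to 0.24), nitrogen (-0.01 to 0.11) and cytosolic ribosomal protein genes (-0.02 to 0.07). The cause of these changes was not tested. Depth is not defined for arrays, and values near 8 give only limits. The motif search was not run.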
